A study of Mus musculus with 4 samples.

Results

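A set of 6 genes of lipid mediator metabolism was followed through a culture experiment on lung group 2 innate lymphoid cells (ILC2s): Ptgs2, Hpgds, Alox5ap, Lpcat2, Pla2g7 and Pparg. They were chosen by name as the genes that make prostaglandin D2 or leukotrienes, or make or break down platelet activating factor (PAF), together with the nuclear receptor gene Pparg, and all 6 were among the 17187 genes of the deposited table. Strictly, Alox5ap encodes a helper protein and Pparg a transcription factor, so 4 of the 6 encode enzymes. Lungs of BALB/c mice, wild type per the series' design text, were the source of the sorted cells. Per the labels' protocols they then spent 18 hours in culture, with isotype control antibody in 2 libraries and in the other 2 with anti-CD226, which binds a costimulatory receptor. The labels give 5 µg/mL after the CD226 antibody, and the dose of the isotype control is not clear from them. The design text speaks instead of treated mice, and PBS is the name of the control treatment in the deposited table. The sources used here give neither the age and number of mice, nor any other stimulus, nor whether replicates are separate mice or cultures. The p-values therefore reflect the spread between these 4 libraries, and that spread may be technical.

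Prostaglandins and leukotrienes are made from arachidonic acid that phospholipases release from membranes. Cyclooxygenases, encoded by Ptgs1 and Ptgs2, turn it into the precursor from which the haematopoietic synthase encoded by Hpgds makes prostaglandin D2, a chemoattractant of ILC2s and other type 2 cells. Arachidonate lipoxygenase (Alox5), presented with its substrate by the protein of Alox5ap, starts the leukotriene route instead. PAF is a phospholipid mediator that Lpcat2 makes from its lyso form and that the secreted acetylhydrolase encoded by Pla2g7 inactivates. Pparg encodes a receptor for oxidised and unsaturated fatty acids, expressed by ILC2s and by alveolar macrophages.

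The estimated depth was between 12433729 and 17847306 reads per library. Across genes with a mean of at least 10, anti-CD226 replicate 2 was the library least like the others. Its r with them was 0.968 to 0.9766 on log2(value + 1), against 0.9856 to 0.9865 among the others. Sorted ILC2s were recognisable in all 4 libraries, with Il5 at 67864 to 97655 and the lineage factor Gata3 at 13811 to 17310 normalised reads, the unit of all levels below. The ILC2 identity list had 17 genes tested, with 10 higher and 7 lower in anti-CD226 libraries and 0 past the test. In the T cell and NK cell list Trac stood between 2.06 and 4.64 and Cd3d between 1.10 and 5.53, while Trbc2 stood between 1340 and 2370. The other CD3 genes of that list were higher than Cd3d, with Cd3e between 51.5 and 79.4 and Cd3g between 215 and 325. The genes of highest mean in the other lists were Ccr3 (eosinophils, 23.2 to 45.3), Ccr7 (dendritic and B cells, 872 to 1081) and Pecam1 (epithelium and endothelium, 620 to 726), and no gene of any marker list passed the test. Of the 17 macrophage markers listed, 10 were analysed, and their summed level was 270 and 290 in isotype replicates 1 and 2 against 427 and 1250 in anti-CD226 replicates 1 and 2. The mast cell and basophil list (10 of 12 analysed) summed to 2749 and 3031 against 2341 and 3513, most of it the tryptase gene Tpsab1. Of its 7 genes tested, 2 were higher and 5 lower in anti-CD226 libraries, and 3 had an unadjusted p below 0.05, against 2.37% of all genes tested. These were the protease genes Cpa3 (84.0 and 100.4 against 37.1 and 63.9) and Mcpt8 (34.3 and 34.8 against 15.4 and 18.7), both lower, and the transcription factor gene Gata2 (8.84 and 10.04 against 26.8 and 20.9), which was higher. Only genes with a mean of at least 10 over the 4 libraries were tested. Gata2, with an isotype mean of 9.44, reached that only through the anti-CD226 libraries, so the filter set the count of 3 in part. Fcer1a, of the IgE receptor, stood at 16.6 and 20.9 against 14.4 and 7.72. Other genes of the list went the other way. Kit, which was tested, stood at 950 and 768 against 913 and 1350 (log2 fold change 0.38). Hdc, below the filter, stood at 1.11 and 3.86 against 8.24 and 12.1. Macrophages and mast cells also transcribe several of the 6 genes, and the part of their RNA in the members' levels was not tested. In pooled cells such as these, fewer cells of a type and less RNA per cell cannot be told apart.

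Promoter windows were taken for the member whose level varied most between libraries, Ptgs2, and for the one that varied least, Pparg, to set the DNA ahead of a start of each side by side. Each window holds the 250 bases before a start of transcription in RefSeq (GRCm38.p6). RefSeq starts were found for 5 of the 6 members (7 starts), and windows that overlap an annotated exon were not used. The Ptgs2 window is chr1:150099781-150100030 on the plus strand, and that of Pparg, chr6:115421816-115422065 on the plus strand, precedes the most downstream of its 3 RefSeq starts. Capitals mark matches, on either strand, to GGGCGG (the GC box of Sp1 factors) or to GAGGAA (a form of the site of PU.1).

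Ptgs2: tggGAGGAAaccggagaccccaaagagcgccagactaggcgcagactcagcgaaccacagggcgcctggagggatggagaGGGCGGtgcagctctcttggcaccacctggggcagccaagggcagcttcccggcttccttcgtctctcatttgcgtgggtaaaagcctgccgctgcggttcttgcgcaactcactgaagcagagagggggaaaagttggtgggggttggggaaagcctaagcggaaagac

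Pparg: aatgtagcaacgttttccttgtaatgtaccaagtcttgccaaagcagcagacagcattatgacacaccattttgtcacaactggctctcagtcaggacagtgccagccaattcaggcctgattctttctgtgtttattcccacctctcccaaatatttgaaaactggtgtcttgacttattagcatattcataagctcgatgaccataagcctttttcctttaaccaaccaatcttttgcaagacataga

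The Ptgs2 window had 61.6% G and C and the Pparg window 40.8%, against a median of 52.4% over 32817 windows of this length. The Ptgs2 window held 1 GC box, 165 to 170 bases before the start, and 1 PU.1 form, 242 to 247 bases before it. Of all windows, 32.7% held GGGCGG and 23.3% held GAGGAA. The Pparg window held neither. Neither window matched TGANTCA (AP-1 factors), which 6.75% of all windows held, nor TTCNNNGAA (STAT factors), which 7.01% held. Neither held TGACGTCA, the CRE, found in 1.55% of windows, or CACGTG, the E-box, found in 6.02%. Neither held TATAAA, the core of the TATA box, found in 12.4%, an NF-kB motif (1.21%) or the DR1 motif of PPAR and RXR dimers (0.0335%). The same was true of the site of GATA factors, searched as GATA after an A or a T and before an A or a G, which 26.6% of windows held. For both genes, bases outside the printed windows were not searched, so any of these motifs may lie there. The deposited values are sums over a gene, so they do not show which start was used.

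No member passed the test between the groups. Limma's adjusted p, over the 13010 genes with a mean of at least 10, was below 0.05 for 0 of 6 members, as for 0% of all genes tested. At an unadjusted p below 0.05 there was 1 of 6 members, Pla2g7, against 2.37% of genes. The groups did not overlap in 1 of 6 members, again Pla2g7, against 26.8% of genes. Of the 6, 3 were higher and 3 lower in anti-CD226 libraries, with a median log2 fold change of 0.12 against 0.01 over all genes tested. Here and below, SE is the standard error. All fold changes are anti-CD226 over isotype on the log2(value + 1) scale, and all errors beside means are SDs (n = 2).

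**Figure D1:**
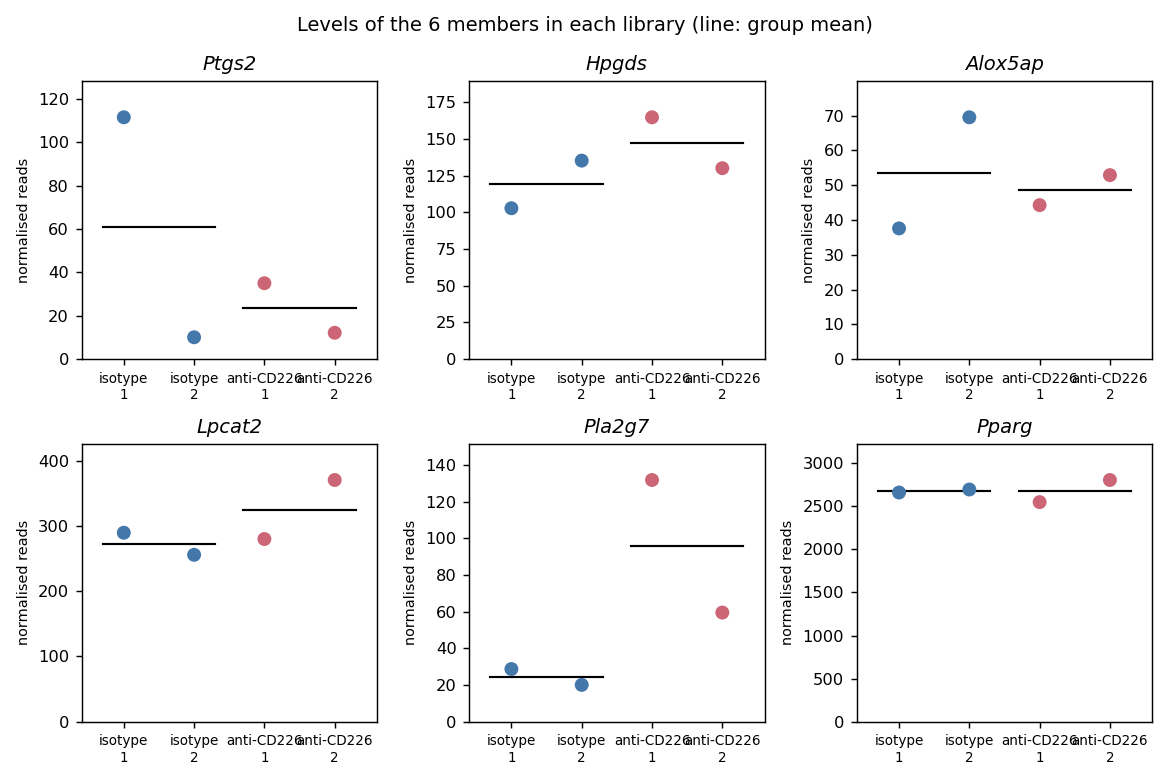
Level of each member in normalised reads (vertical axes, each starting at 0) in the 4 libraries, with isotype in blue, anti-CD226 in red and a line at each group mean. Only in the Pla2g7 panel do both anti-CD226 libraries (132 and 59.5) lie above both isotype libraries (28.7 and 20.1), and in the Ptgs2 panel isotype replicate 1 stands alone at 112.

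Ptgs2, the inducible cyclooxygenase on chromosome 1 from 150100031 to 150108227 (GRCm38, plus strand), was the most variable member. It stood at 112 and 10.0 in isotype replicates 1 and 2 and at 35.0 and 12.1 in anti-CD226 replicates 1 and 2. Isotype replicate 1 was high and the other 3 libraries low, and the groups overlapped. The isotype libraries differed 11.1-fold from each other, a gap exceeded by 0.0922% of the genes tested, and the anti-CD226 libraries differed 2.89-fold. These levels rest on 101, 13, 34 and 11 reads. Counting error of reads alone (exact Poisson, 95%) spans 90.9 to 136 in isotype replicate 1 and 5.35 to 17.2 in isotype replicate 2. These intervals do not overlap, but they treat reads as independent. Amplified reads are not independent molecules, so the error from sampling molecules may be wider. The isotype mean was 60.8 ± 71.8 and the anti-CD226 mean 23.6 ± 16.2. The log2 fold change of -0.70 (SE 0.997) had a 95% interval from -3.01 to 1.61 (limma, adjusted p = 0.98). Its sign turned without either of a pair of libraries. Without isotype replicate 1 the log2 fold change was 0.98, and without anti-CD226 replicate 2 it was 0.03; neither passed the test. Without isotype replicate 2 it was -2.37 (limma, adjusted p = 0.043), and without anti-CD226 replicate 1 it was -1.43 (adjusted p = 0.13). Such fits have 1 residual degree of freedom. Their errors and p-values rest more on the spread of genes of like mean than on that of Ptgs2 itself.

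Hpgds, the synthase of prostaglandin D2 on chromosome 6 from 65117293 to 65144908 (minus strand), was present in every library. It stood at 103 and 135 in isotype replicates 1 and 2 and at 165 and 130 in anti-CD226 replicates 1 and 2. Anti-CD226 replicate 1 was highest and isotype replicate 1 lowest, and the middle libraries, 1 of each group, differed by little. The means were 119 ± 22.9 against 147 ± 24.5, a log2 fold change of 0.31 (SE 0.25; limma, adjusted p = 0.98). The 95% interval, from -0.27 to 0.89, allows a level in anti-CD226 libraries between 0.829 and 1.85 times that in isotype libraries.

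Alox5ap, which presents arachidonic acid to the lipoxygenase, lies on chromosome 5 from 149264767 to 149288153 (plus strand). It stood at 37.6 and 69.5 in isotype replicates 1 and 2 and at 44.3 and 52.9 in anti-CD226 replicates 1 and 2. Both anti-CD226 libraries fell inside the isotype range. The means were 53.6 ± 22.6 against 48.6 ± 6.10, a log2 fold change of -0.08 (SE 0.37), with a 95% interval from -0.94 to 0.78 (limma, adjusted p = 0.99). Its sign turned when isotype replicate 2 was left out (0.36), when anti-CD226 replicate 1 was (0.05), and with each library's length trend removed (0.06). Between 34 and 90 reads lie behind each value.

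Lpcat2, the acyltransferase that completes PAF, lies on chromosome 8 from 92855339 to 92919279 (plus strand). It stood at 290 and 256 in isotype replicates 1 and 2 and at 280 and 370 in anti-CD226 replicates 1 and 2. Anti-CD226 replicate 2 was above the other 3 libraries, among which anti-CD226 replicate 1 lay between the isotype libraries. The means were 273 ± 23.9 against 325 ± 64.0, a log2 fold change of 0.24 (SE 0.21), with a 95% interval from -0.25 to 0.74 (limma, adjusted p = 0.98). Its difference depended on anti-CD226 replicate 2, without which the log2 fold change was 0.04.

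Pla2g7, the acetylhydrolase that inactivates PAF, differed most. It lies on chromosome 17 from 43568098 to 43612201 (plus strand). It stood at 28.7 and 20.1 in isotype replicates 1 and 2 and at 132 and 59.5 in anti-CD226 replicates 1 and 2. Both anti-CD226 libraries were above both isotype libraries, as in 13.8% of genes tested, and the anti-CD226 libraries themselves differed 2.21-fold. The values rest on 26, 26, 128 and 54 reads. Counting error (exact Poisson, 95%) spans 18.8 to 42.1 in the higher isotype library and 44.7 to 77.7 in the lower anti-CD226 library. The means were 24.4 ± 6.11 against 95.7 ± 51.1, a log2 fold change of 1.84 (SE 0.43), with a 95% interval, not adjusted over genes, from 0.84 to 2.84. By unadjusted p (0.0029) it ranked 16 of the 13010 genes, and it did not pass the adjustment over all genes (limma, adjusted p = 0.98). The log2 fold change was 2.41 when anti-CD226 replicate 2 was left out and 1.27 when anti-CD226 replicate 1 was. It was 2.09 when isotype replicate 1 was left out and 1.59 when isotype replicate 2 was. Each of these fits leaves 1 library in a group and has 1 residual degree of freedom. Its error therefore rests more on the spread of genes of like mean than on that of Pla2g7.

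**Figure D2:**
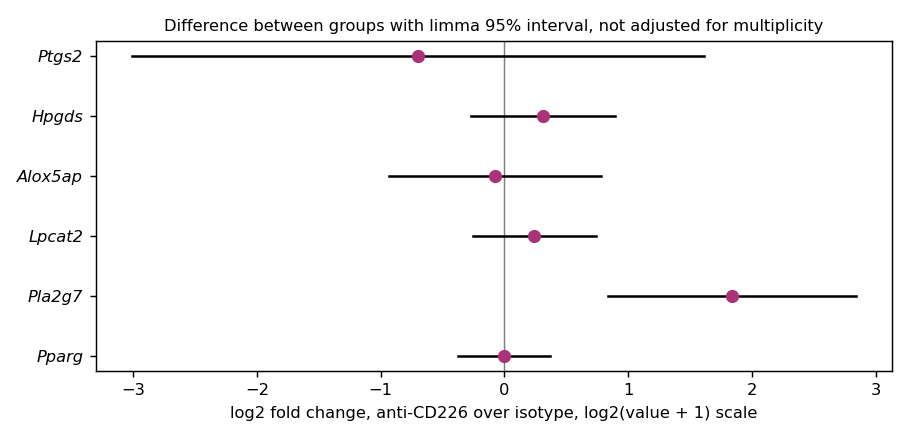
Log2 fold change of each member, anti-CD226 over isotype on the log2(value + 1) scale (horizontal axis), with limma's 95% interval, which is not adjusted over genes. The interval of Pla2g7 runs from 0.84 to 2.84, while those of the other 5 members hold 0, that of Ptgs2 being the widest and that of Pparg the narrowest.

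Several macrophage markers also had higher values in anti-CD226 libraries, and none passed the test. Of the 6 markers tested, 5 were higher in anti-CD226 and 1 lower. In 3 of the 6 the anti-CD226 libraries lay above both isotype libraries, against 13.8% of all genes tested. At an unadjusted p below 0.05 there were 4 of the 6, against 2.37% of genes, and 0 passed the adjustment. Of the 6, Chil3, Itgax and Lyz2 had isotype means of 9.95, 0.553 and 2.04. They reached the mean of 10 needed for testing only through the anti-CD226 libraries, and 4 other markers fell below it. The filter thus set these counts in part, and no conclusion is drawn from their distance to the shares of all genes. Chil3, a chitinase-like protein of lung macrophages, stood at 19.9 and 0 in isotype replicates 1 and 2 and at 16.5 and 784 in anti-CD226 replicates 1 and 2. Itgax, which encodes CD11c, stood at 1.11 and 0 against 14.4 and 46.3, and Lyz2, lysozyme, at 3.32 and 0.773 against 8.24 and 51.8. Cd68, the remaining marker of those 4, stood at 35.4 and 38.6 against 55.6 and 88.2. Its isotype mean of 37.0 passed the filter without the anti-CD226 libraries. The protease gene Ctss, the marker of highest mean, stood at 190 and 230 against 289 and 227. Csf1r, which encodes the growth factor receptor of macrophages, stayed between 1.03 and 2.62 and Adgre1 (F4/80) between 2.20 and 7.73 in all libraries, Mpeg1 was at 0 in both isotype libraries, and Chil3, Itgax and Itgam were at 0 in isotype replicate 2. Apoe, an apolipoprotein of macrophages, stood at 14.4 and 10.8 against 11.3 and 13.2. Ctss and Itgam (1.11 and 0 against 19.6 and 18.7) were highest in anti-CD226 replicate 1, as Pla2g7 was, while Cd68, Itgax, Lyz2, Chil3 and Mpeg1 were highest in anti-CD226 replicate 2. The part of macrophage RNA in the Pla2g7 difference was not tested.

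**Figure D3:**
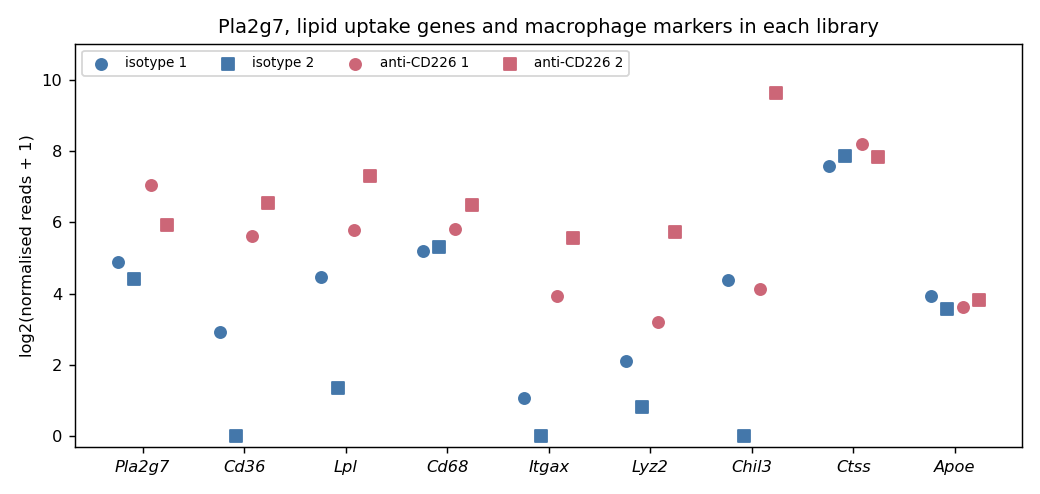
Level of Pla2g7, of the lipid uptake genes Cd36 and Lpl and of the 6 macrophage markers tested, as log2(normalised reads + 1) (vertical axis), in each library (blue isotype, red anti-CD226, circles replicate 1, squares replicate 2). Pla2g7 (132 normalised reads) and Ctss (289) have their highest value in anti-CD226 replicate 1, Cd36, Lpl, Cd68, Itgax, Lyz2 and Chil3 have theirs in anti-CD226 replicate 2, and Apoe has its in isotype replicate 1 (14.4).

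Pparg, on chromosome 6 from 115360951 to 115490399 (plus strand), was the most abundant and least variable member. It stood at 2659 and 2693 in isotype replicates 1 and 2 and at 2547 and 2804 in anti-CD226 replicates 1 and 2. Both isotype libraries fell between the anti-CD226 libraries, and the highest value was 1.10 times the lowest. The means were 2676 ± 24.5 against 2676 ± 181, a log2 fold change of -0.0020 (SE 0.16; limma, adjusted p = 0.998). Its 95% interval, from -0.37 to 0.37, allows levels between 0.773 and 1.29 times the isotype level. The sign of so small a difference turned with the length trend removed (0.06), and when isotype replicate 2 (0.0074) or anti-CD226 replicate 1 (0.07) was left out.

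Levels of different genes can be compared only per length, here per kilobase of the longest annotated transcript. On that scale Pparg was first in all 4 libraries, with 1259 ± 11.5 normalised reads per kilobase (isotype) and 1259 ± 85.4 (anti-CD226). Lpcat2 held place 2 in all 4, with 97.0 ± 8.50 and 116 ± 22.8. Hpgds held place 4 in all 4, with 30.6 ± 5.90 and 37.9 ± 6.30. Alox5ap held place 3 in 3 libraries and place 5 in anti-CD226 replicate 1, with 42.8 ± 18.1 and 38.8 ± 4.88. Pla2g7 moved between places 3 and 6, with 11.6 ± 2.91 and 45.6 ± 24.4. Ptgs2 was last in 3 libraries, with 13.7 ± 16.1 and 5.29 ± 3.63. Below Lpcat2, the ranges of mean ± SD of neighbours in this order overlapped in isotype libraries. The longest transcript of Hpgds is not a coding one, and with its longest coding transcript every place was the same.

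The other genes of the routes were described from lists of 8 pathway steps. Of the 60 genes tested besides the members, 27 were higher and 33 lower in anti-CD226 libraries, 0 passed limma's adjusted p of 0.05 in either direction and 4 (Rxra, Ncoa1, Cd36 and Lpl) had an unadjusted p below 0.05, against 2.37% of all genes tested. Their median log2 fold change was -0.02, and the groups did not overlap in 35% of them (11 higher, 10 lower), against 26.8% of all genes tested. Of the 4, Cd36 (isotype mean 3.32, anti-CD226 mean 69.9) reached the mean of 10 needed for testing only through its anti-CD226 libraries. In the lists below, counts include the members. None of the genes named in the following paragraphs passed.

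Arachidonate release and prostanoid synthesis showed no common direction. Of 7 phospholipase and lipase genes tested, 2 were higher and 5 lower (median -0.17). Pla2g4a, the cytosolic phospholipase that feeds both routes, stood at 76.2 and 42.5 in isotype replicates 1 and 2 and at 51.5 and 45.2 in anti-CD226 replicates 1 and 2. Its isotype replicate 1 was also the library in which Ptgs2 was highest. Pla2g12a, with the highest mean of the list (not corrected for length), had 772 ± 26.0 against 688 ± 52.7, Pla2g6 had 218 ± 13.5 against 269 ± 55.9, and the lysosomal Pla2g15 had 283 ± 42.5 against 231 ± 27.7. Of 8 synthesis genes tested, 3 were higher and 5 lower (median -0.05). Ptgs1, the constitutive cyclooxygenase, stood at 17.7 and 24.7 against 15.4 and 40.8. Ptges3, a cochaperone also described as a prostaglandin E synthase, had 4228 ± 158 against 4190 ± 250, and Akr1b3, an aldose reductase, had 3129 ± 180 against 2739 ± 712. Of 3 export and breakdown genes, 2 were higher and 1 lower (median 0.24): Ptgr2, a prostaglandin reductase, had 636 ± 45.1 against 750 ± 42.3, the exporter Abcc4 had 454 ± 154 against 612 ± 157, and Ptgr1 had 231 ± 57.9 against 184 ± 80.0.

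The first enzyme of the leukotriene route and its hydrolase were present in all libraries. Alox5 stood at 1430 and 1264 in isotype replicates 1 and 2 and at 1298 and 1690 in anti-CD226 replicates 1 and 2, and Lta4h, which makes leukotriene B4, at 1842 and 1741 against 1717 and 1886. In both genes the groups overlapped. The glutathione transferases Mgst3 and Mgst2 had 184 ± 24.6 against 146 ± 20.1 and 23.03 ± 1.31 against 17.9 ± 8.17. Of 9 genes tested in this list, 4 were higher and 5 lower (median -0.08). Ltc4s was not analysed here.

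PAF metabolism held the member with the largest difference. Of 11 genes tested, 6 were higher and 5 lower (median 0.04). The groups did not overlap in 3 of the higher and 2 of the lower genes, against 26.8% of all genes tested. After Pla2g7, the largest difference was that of Pafah1b3, at 283 and 246 in isotype replicates 1 and 2. It stood at 252 and 144 in anti-CD226 replicates 1 and 2 (log2 fold change -0.46; limma, adjusted p = 0.98). Lpcat3, an acyltransferase of membrane remodelling with the highest uncorrected mean of the list, had 4763 ± 55.5 against 5284 ± 815. Pafah1b1, the regulatory subunit of the intracellular acetylhydrolase, had 1568 ± 17.6 against 1287 ± 156, lower in both anti-CD226 libraries (a difference of -0.29 on the log2 scale). Pafah2, another intracellular acetylhydrolase, stood at 88.4 and 102 against 107 and 103, a log2 fold change of 0.14 beside the 1.84 of Pla2g7. Whether these differences differ from each other was not tested.

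Of 8 receptors for these mediators tested, 3 were higher and 5 lower (median -0.03). Ltb4r1, the receptor for leukotriene B4, stood at 6128 and 6479 in isotype replicates 1 and 2 and at 5815 and 5915 in anti-CD226 replicates 1 and 2. Cysltr1, the receptor through which cysteinyl leukotrienes act on ILC2s, stood at 4410 and 4630 against 4767 and 4556. Ptger4, a receptor for prostaglandin E2, had 1525 ± 43.8 against 1683 ± 323, and Ltb4r2, another receptor for leukotriene B4, had 24.2 ± 4.78 against 18.0 ± 2.14. Ptafr, the PAF receptor, was below the filter, at 6.63 and 3.86 against 4.12 and 17.6, a few reads per library. Ptgdr and Ptgdr2, the receptors for prostaglandin D2, were not analysed here.

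Of the partner genes of Pparg tested, 2 of 11 had an unadjusted p below 0.05, and of its target genes 2 of 9. The share over all genes tested was 2.37%. Cd36, among the targets, was tested only through its anti-CD226 libraries (isotype mean 3.32). Rxra, which encodes a retinoid receptor that pairs with the Pparg protein on DNA, stood at 85.1 and 88.1 in isotype replicates 1 and 2 and at 190 and 122 in anti-CD226 replicates 1 and 2 (log2 fold change 0.81, SE 0.27; limma, adjusted p = 0.98). Its groups did not overlap, and like Pla2g7 it was highest in anti-CD226 replicate 1. The coactivator gene Ncoa1 stood at 598 and 437 against 694 and 1055, and the corepressor gene Ncor1 at 3442 and 3445 against 3598 and 5028. Of 11 partner genes tested, Pparg included, 6 were higher and 5 lower (median 0.02). Of 9 target genes tested, 4 were higher and 5 lower (median -0.02). Cd36, a fatty acid translocase, stood at 6.63 and 0 against 48.4 and 91.5 and Lpl, lipoprotein lipase, at 20.996 and 1.55 against 53.5 and 155. Both are also transcribed by macrophages and were highest in anti-CD226 replicate 2, where the macrophage markers summed to 1250, of which Chil3 was 784. The part of macrophage RNA in the Cd36 and Lpl values was not tested. Ucp2, with the highest uncorrected mean of the list, had 18191 ± 699 against 21701 ± 2264, and Plin2, which coats lipid droplets, stood at 7570 and 7443 against 7017 and 6689.

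**Figure D4:**
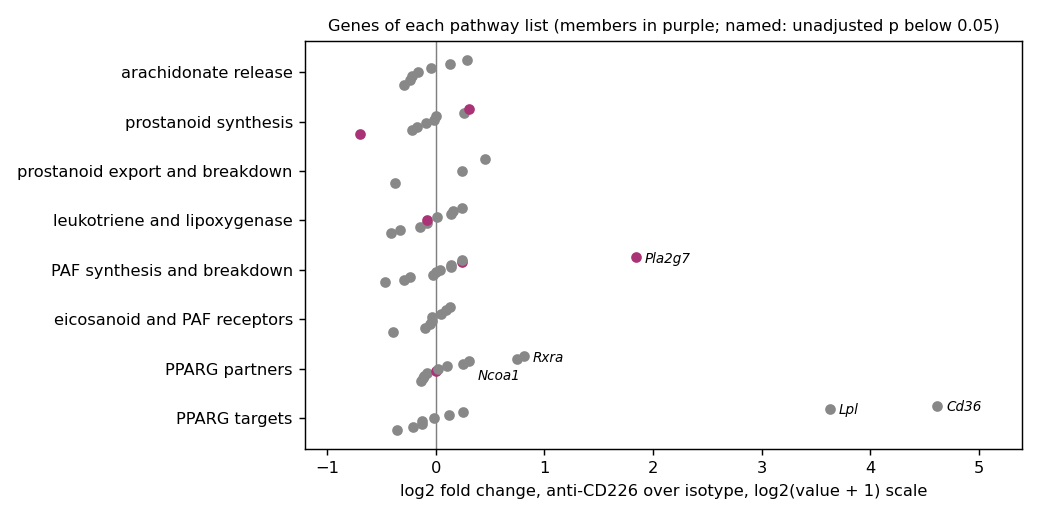
Log2 fold change, anti-CD226 over isotype on the log2(value + 1) scale (horizontal axis), of each gene tested in the 8 pathway lists (rows), with members in purple and the vertical offset within a row serving only to separate points. Genes with an unadjusted p below 0.05 are named (Pla2g7, Rxra, Ncoa1, Lpl and Cd36), and most others lie close to 0.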

How the data were processed

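RNA of cultured lung ILC2s was sequenced as 4 libraries, 2 per group. Per the labels' protocols, cDNA was made with a low-input SMARTer kit. Per the submitters' processing notes, the tools were STAR 2.7.8, Partek 10.0 and DESeq2, without a version for the last, and the build was mm10. The counter, the annotation and the strand setting are not given in the sources. Reads of overlapping genes (genes on the other strand overlap Lpcat2, Alox5ap and Pla2g7) can therefore not be told apart from theirs. Each deposited value is a signal: the reads of a gene after the authors' scaling by library. Between 73.5% and 75.1% of each library's checked values were whole multiples of 1 step (tolerance 0.02 of a step), so no count model was run. The step is taken as 1 read, which gave the estimated depths. Of the 24 member values, 19 were whole reads. Intervals cover counting error only, since amplified reads are not independent molecules. Columns checked singly against the unit numbered 816, and the others were taken to be of the same kind.

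Genes with a mean of 10 or more (13010) were tested on log2(value + 1) by limma 3.58.1 (R 4.3.3), allowing a trend of variance with mean, two-sided, with Benjamini-Hochberg adjustment over all of them. The fit has 2 residual and 5.81 prior degrees of freedom. The log2(value + 1) scale understates changes of genes with few reads. With 2 libraries a group, the smallest two-sided p of an exact permutation test is 0.333, and none was run. Annotation is GENCODE M21 (GRCm38, which mm10 denotes). Named are the 6 members, of each pathway list the gene of highest mean and up to 2 of smallest p, the genes the routes need, and of marker lists the gene of highest mean. Cd68, Chil3, Csf1r, Adgre1, Itgam, Mpeg1, Itgax, Lyz2, Pafah2, Pafah1b3, Gata3, Trac, Cd3d, Plin2, Apoe, Cpa3, Mcpt8, Gata2 and Fcer1a were named after their values were seen. So were Cd3e, Cd3g, Kit and Hdc. The members and lists were chosen with earlier results of these data known. The steps were tested on simulated data.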

Additional observations from a re-analysis of the deposited data

How the results depend on the processing

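The count of genes past an adjusted p of 0.05 was 0 under the 11 other settings of pseudocount, filter, scaling, variance model and length trend. It was between 12 and 1633 when 1 library was left out (12 and 17 when isotype replicate 1 or 2 was dropped, 1633 and 53 when anti-CD226 replicate 1 or 2 was). The members past that threshold were between 0 and 1: Ptgs2 without isotype replicate 2, and Pla2g7 without either anti-CD226 library. The cause was not tested. Leaving out 1 library gave log2 fold changes of 0.11 to 0.51 for Hpgds, 0.04 to 0.44 for Lpcat2, -2.37 to 0.98 for Ptgs2, -0.51 to 0.36 for Alox5ap, 1.27 to 2.41 for Pla2g7 and -0.071 to 0.067 for Pparg. With the length trend removed, Alox5ap was at 0.064 and Pparg at 0.061, both with the opposite sign. Same-numbered libraries did not deviate together (r = -0.24 across 13010 genes). With 2 libraries a group, this cannot tell whether same-numbered libraries share a source. The replicate block gave 20 genes, of which 1 was a member, Pla2g7 (1.84, limma adjusted p = 0.010). A crossed replicate block, added after seeing the data, gave 61 genes and 1 member, Pla2g7 (1.84, adjusted p = 0.029). Blocked and left-out fits have 1 residual degree of freedom, and in the replicate block and without either isotype library limma gave genes of like mean 1 common spread. The blocks changed no other member's call. Over the 13 settings other than left-out libraries, Pla2g7 ranged from 1.69 to 1.91. Ptgs2 has no value with a minimum mean of 50. Few reads limit Ptgs2, Alox5ap and Pla2g7.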

Other observations

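Genes with the same pattern over the 4 libraries were looked up for the 5 members with a mean of at least 50, by the Euclidean distance between log2(value + 1) values centred on each gene's mean, among 10337 genes. With 4 libraries this describes these libraries only. The distance is not scaled by the size of a gene's changes. A level gene therefore has many genes near it and a variable gene few, whatever its pattern. Pla2g7 was the member with no near neighbour: 0 genes lay within a distance of 0.5, and the nearest were Cul3, a scaffold of ubiquitin ligases (distance 0.82), and the cytokine gene Il22 (0.90). Cul3 stood at 330 and 354 in isotype replicates 1 and 2 and at 1007 and 762 in anti-CD226 replicates 1 and 2. Il22 stood at 30.0 and 40.2 against 112 and 81.7. Both therefore shared with Pla2g7 a top value in anti-CD226 replicate 1. Pla2g7 (isotype mean 24.4) and Il22 (isotype mean 35.1) reached the mean of 50 only through their anti-CD226 libraries. The filter thus set in part which genes were compared. For Pparg 7653 genes lay within 0.5, the nearest being Eno1b (0.018) and Srp54c (0.021), both members of families with near-identical copies, which makes it unsure which copy their reads came from. For Lpcat2 5685 genes did, led by Tmem168 (0.013) and Unkl (0.015). For Hpgds 2945 did, led by Selenbp1 and Kmt5a (0.08 and 0.08). For Alox5ap 464 did, led by the nuclear RNA Malat1 (0.07), at 5662 and 10427 against 6308 and 7824, and by the histone gene H4c4 (0.12).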
